A study of Gallus gallus with 40 samples.

Results

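SULT and SULT1C3 are a pair of cytosolic sulfotransferase genes that were measured in the livers of growing chickens of a pair of lines, one of high growth (HG) and the other of low growth (LG). They were chosen by symbol, as the probes that the platform annotation names SULT or SULT1C3, and because their line differences had stood out in these arrays. The rule took 2 of the 6428 annotated genes, each with 1 probe among 18547. Both probes passed the filter on missing values, with 6432 probes fitted in all. Since these ratios chose the genes, their line differences are given as a description with no test.

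Cytosolic sulfotransferases move a sulfonate group from the donor PAPS to hydroxyl or amino groups of small molecules such as phenols, steroids, thyroid hormones and drugs. The products are more soluble in water, are usually inactive at the receptor of the parent hormone, and leave the cell through transporters. The liver is a main site of this reaction in vertebrates, beside glucuronidation and conjugation to glutathione. The substrates of the chicken enzymes named SULT and SULT1C3 are not taken from mammals here. SULT carries the family name alone, and SULT1C3 is named after a human member of the 1C group.

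The lines were selected in opposite directions for body weight at 8 and 32 weeks of age and were raised as broilers are. Each of 40 spotted cDNA arrays set HG against LG liver RNA of 1 age. The 1 week and 3 week birds filled 12 arrays per age, and the birds of 5, 7, 9 and 11 weeks filled 4 per age. HG carried Alexa Fluor 555 on one part of the arrays of an age and Alexa Fluor 647 on as many others. Some birds were hybridised again at 1 and 3 weeks, and the labels do not say on which arrays, so the spread there is partly technical. The fits below had no term for the bird, so their SE and p-values count such arrays as separate birds. The lines stand for a pair of selected populations, and no unselected line was analysed here. The tissue is whole liver, in which fewer cells of a type and less RNA per cell cannot be told apart.

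The deposited value is a linear ratio of the dyes for each spot. The numerator dye is not stated. All values below are log2 ratios turned so that a negative value means lower in HG liver if Alexa Fluor 647 is the numerator, and lower in LG liver if Alexa Fluor 555 is. The first is the likelier reading, from the dye colours that the series text names, and the direction is not settled. A pair of plasma proteins marks the sides. TTR, a carrier of thyroid hormone and retinol, was negative at 7 weeks, with -1.63 and -1.06 for its probes, and ORM1, an acute phase glycoprotein, was positive at 2.19. A ratio gives no level, so neither the abundance of the transcripts nor the purity of the tissue can be read from it.

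Arrays differed in how far they could be relied on. A value was present for 7291 to 13434 of 19200 spots. Replicates 3 and 4 at 3 weeks were near-identical, with 97.8% of 9493 shared spots within 0.001 of each other on the log2 scale, although the labels give them opposite orientations. They were read as 1 array whose orientation cannot be assigned, and 38 arrays were used. Of these, 32 had r above 0 across probes with the line effect of the others. The other way ran, at 3 weeks, replicate 1 (r = -0.224), replicate 2 (r = -0.179) and replicate 7 (r = -0.104), and at 5 weeks replicate 4 (r = -0.275), while replicate 6 at 1 week and replicate 1 at 7 weeks had r just below 0. The lowest correlations between arrays were -0.307 for arrays of the same orientation and -0.534 for arrays of opposite orientation.

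SULT stood near 0 in young birds and far on the negative side from 7 weeks on. At 1 week its 12 arrays had a lowest value of -0.76, a median of -0.20 and a highest value of 0.11, and 10 of them were negative. At 3 weeks 9 arrays had a value, with a lowest of -0.22, a median of -0.10 and a highest of 0.18. The arrays of both ages lay in a narrow band around 0 and overlapped. The fitted line difference was -0.24 at 1 week (SE 0.192, 1.18-fold, n = 12) and -0.07 at 3 weeks (SE 0.222, 1.05-fold, n = 9), both within about the spread of the arrays.

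At 5 weeks the SULT arrays lay on both sides of 0. Replicates 1 to 4 read -0.57, -1.05, -2.22 and 0.98. Replicate 4 alone was positive, and across probes it had r = -0.275 with the line effect of the other arrays. The reason for that r was not tested. The fitted difference was -0.71 (SE 0.332, 1.64-fold, n = 4, SD of the arrays 1.33). Without replicate 4 it was -1.23, and without replicate 3, the most negative array, it was -0.27.

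At 7 weeks the SULT arrays read -1.99, -2.27, -3.30 and -1.72, and the fitted difference was -2.32 (SE 0.332, 4.99-fold, SD 0.69, n = 4). At 9 weeks they read -2.86, -0.98, -2.25 and -3.47, with a fitted difference of -2.39 (SE 0.332, 5.23-fold, SD 1.06, n = 4). At 11 weeks they read -1.04, -1.80, -0.56 and -3.68, with a fitted difference of -1.77 (SE 0.332, 3.41-fold, SD 1.37, n = 4). All 12 arrays of these 3 ages were negative, in both dye orientations. Every array at 7 and at 9 weeks lay below every array at 1 and 3 weeks, while the 11 week arrays overlapped those at 1 week and not those at 3 weeks. After subtraction of the SULT dye effect the 9 week arrays also overlapped those at 1 week, through replicate 2. Each SE, and each limma test below, uses 1 spread per probe shared by all ages. Less the dye effect, the SD of the SULT arrays was 0.315 and 0.244 at 1 and 3 weeks. It was 1.2, 0.597, 1.13 and 1.18 at 5, 7, 9 and 11 weeks. The shared SE thus makes 5, 9 and 11 weeks look more precise than their own arrays are, and 1 and 3 weeks less precise. The median SD of all probes was 0.146 and 0.145 at 1 and 3 weeks. At 5, 7, 9 and 11 weeks it was 0.356, 0.382, 0.219 and 0.225. For a typical probe the shared spread is thus too wide at 1 and 3 weeks and too narrow at 5 and 7 weeks. The limma tests at these ages carry that limit. Across all probes, 2.91% passed an adjusted p of 0.05 at 7 weeks, 0.84% at 9 weeks and 0.389% at 11 weeks (limma), and nothing about SULT is read from these shares, since the same contrasts chose it.

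**Figure D1:**
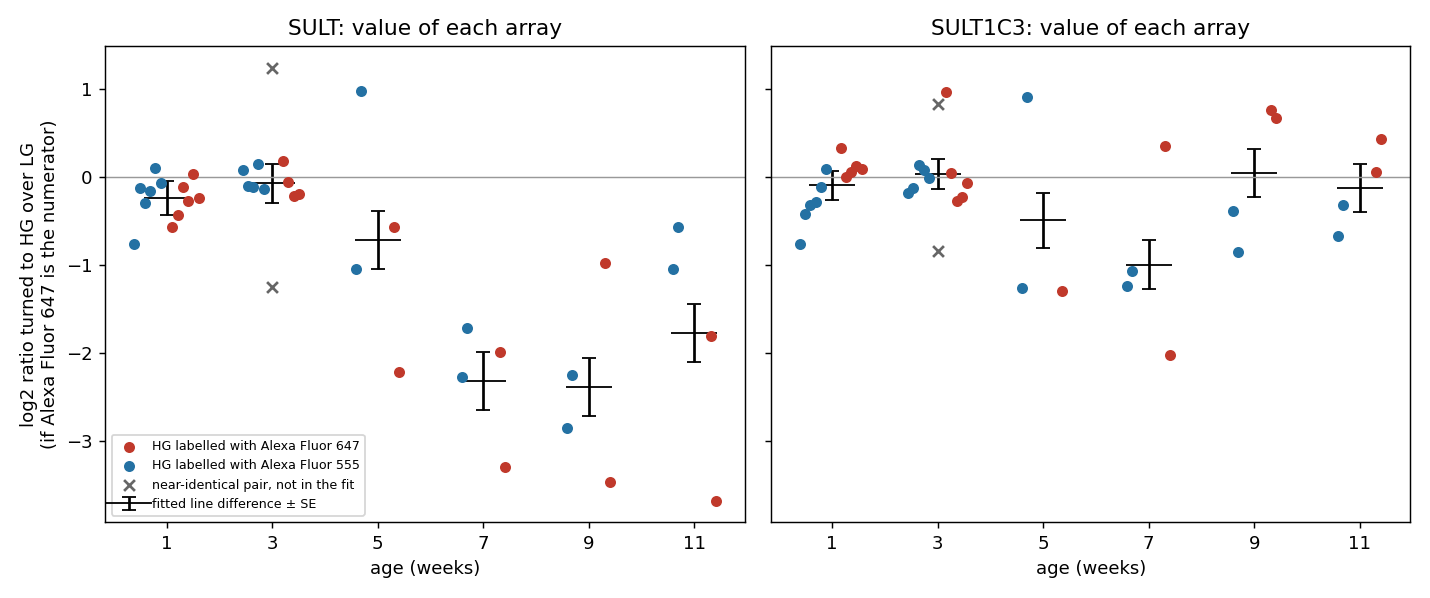
Each point is the turned log2 ratio of 1 array (vertical axis) at each age in weeks (horizontal axis), for SULT on the left and SULT1C3 on the right, coloured by the dye that HG carried; bars are the fitted line difference with its SE and crosses are the near-identical pair at 3 weeks. All SULT points at 7, 9 and 11 weeks are below 0, from -0.56 to -3.68, whereas SULT1C3 points lie on both sides of 0 at every age.

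From the most negative, the SULT differences ran 9, 7, 11, 5, 1 and 3 weeks. Neighbours in this order did not differ beyond their spread. The step from 9 to 7 weeks was 0.07, that from 7 to 11 weeks 0.55, that from 11 to 5 weeks 1.06, that from 5 to 1 week 0.47 and that from 1 to 3 weeks 0.17, each below the larger SD of the 2 ages. The mean of the 4 later ages was lower than the mean of 1 and 3 weeks by 1.64 (SE 0.222), here given as the late minus early difference of -1.64, and 1.15% of all probes passed for that contrast. Among the 6432 probes SULT ranked 84th from the negative end at 1 week, 253rd at 3 weeks, 42nd at 5 weeks, 3rd at 7 weeks, 2nd at 9 weeks and 1st at 11 weeks, and 1st for late minus early.

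Few probes kept 1 sign on all the later arrays. Of 5957 probes with a value on all 12 arrays at 7, 9 and 11 weeks, 12 were negative on each of them (0.201%) and 7 were positive on each (0.118%). SULT was the 1 probe at or below -0.5 on all 12, and 2 probes were at or above 0.5 on all 12. These counts describe the table from which SULT was picked. The bound of 0.5 was not planned, and the least negative SULT array was at -0.56, so the counts lend SULT no support.

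The deposited ratios, before any turning, show the same pattern from the side of the dyes. At 7 weeks the SULT ratio was 0.101 and 0.252 where HG carried Alexa Fluor 647, and 3.29 and 4.84 where HG carried Alexa Fluor 555. At 9 weeks it was 0.0905 and 0.509 against 4.77 and 7.24, and at 11 weeks 0.0781 and 0.287 against 1.48 and 2.06. The ratio thus changed sides of 1 with the orientation on all 12 arrays. At 11 weeks the orientations differed in size, with a mean turned value of -2.74 where HG carried 647 and -0.80 where it carried 555 (n = 2 each). The mean was also more negative where HG carried 647 at 7 weeks (-2.64 against -1.996) and at 5 weeks (-1.39 against -0.033). The gap had the same direction but was small at 1 week (-0.263 against -0.216) and 3 weeks (-0.072 against -0.025). At 9 weeks alone it ran the other way, with -2.22 where HG carried 647 and -2.56 where it carried 555.

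SULT1C3 moved less and at fewer ages. At 1 week 11 arrays had a value, with a lowest of -0.76, a median of 0.0073 and a highest of 0.33, and 5 were negative and 6 positive. At 3 weeks 10 arrays had a lowest of -0.27, a median of -0.03 and a highest of 0.97. Values thus stood on both sides of 0 at both ages, and the highest, replicate 2 at 3 weeks, is among those arrays with r below 0. The fitted differences were -0.09 (SE 0.165) and 0.04 (SE 0.173).

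At 5 weeks SULT1C3 had no value on replicate 1 and read -1.26, -1.30 and 0.91 on replicates 2 to 4. Replicate 4 again stood alone on the positive side, as for SULT. At 7 weeks the arrays read 0.36, -1.24, -2.02 and -1.07, of which 3 were negative. The fitted difference was -0.49 at 5 weeks (SE 0.317, 1.40-fold, n = 3) and -0.99 at 7 weeks (SE 0.273, 1.99-fold, SD 0.99, n = 4). The 7 week arrays overlapped those of every other age, and the difference there was about as large as its own SD. Without replicate 1 it was -1.40 and without replicate 3 it was -0.58. SULT1C3 ranked 43rd of 6432 from the negative end at 7 weeks.

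At 9 weeks SULT1C3 read -0.38, 0.76, -0.85 and 0.67, and at 11 weeks -0.67, 0.06, -0.32 and 0.44. The fitted differences were 0.05 and -0.12 (SE 0.273 each, 1.04-fold and 1.09-fold, n = 4 each). Positive values were those of arrays with HG on Alexa Fluor 647, and negative values those with HG on Alexa Fluor 555. In the deposited ratios all 8 arrays lay above 1 whichever line carried which dye, from 1.30 to 1.80 at 9 weeks and from 1.04 to 1.59 at 11 weeks. The ratio of SULT1C3 at these ages therefore went with the dye and not with the line, on the same arrays where that of SULT went with the line. At 1, 3, 5 and 7 weeks the deposited SULT1C3 ratio lay above 1 on 10 of 11, 5 of 10, 1 of 3 and 3 of 4 arrays.

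**Figure D2:**
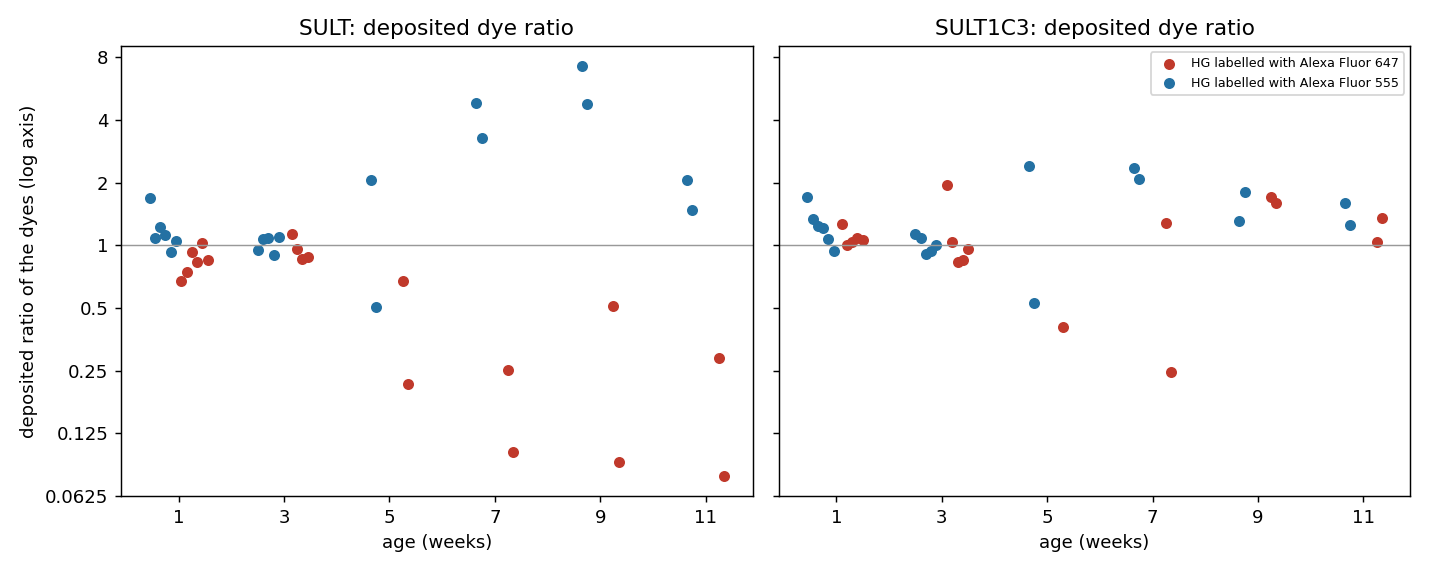
Deposited dye ratio of each array (log axis, 1 marks equal dyes) against age in weeks for SULT on the left and SULT1C3 on the right, coloured by the dye that HG carried. For SULT at 7 weeks the colours lie on opposite sides of 1 (0.101 and 0.252 against 3.29 and 4.84), and for SULT1C3 at 9 and 11 weeks both colours lie above 1.

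The dye effect is another term of the fit than the line differences that chose the genes, and it was tested. It comes from the same arrays, and missing values left its estimate not fully separate from the line differences, since SULT at 3 weeks had 4 arrays of one orientation and 5 of the other. Over all ages it was -0.21 for SULT (log2 of numerator over denominator, SE 0.109, 37 arrays, limma adjusted p = 0.128) and 0.17 for SULT1C3 (SE 0.0916, 36 arrays, limma adjusted p = 0.135). Neither passed, whereas 39.4% of all probes did. SULT1C3 had an untested mean log2 of the deposited ratio of 0.67 at 9 weeks and 0.37 at 11 weeks, above its shared dye effect. The shared term took this off only in part. Leaving out replicate 3 or 4 at 5 weeks, or replicate 3 at 7 weeks, brought the SULT1C3 effect past the threshold, at 0.23, 0.22 and 0.22 (limma adjusted p = 0.0385, 0.0172 and 0.0372). Leaving out replicate 2 at 9 weeks did so for SULT, at -0.27 (adjusted p = 0.0288).

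The first 4 and the later 8 replicates differed for SULT at the young ages. At 1 week replicates 1 to 4 had a mean of -0.47 (SD 0.27, n = 4) and replicates 5 to 12 a mean of -0.12 (SD 0.146, n = 8). At 3 weeks the means were 0.13 (n = 2) and -0.096 (SD 0.122, n = 7). SULT1C3 at 1 week had -0.28 (SD 0.562, n = 3) and -0.042 (SD 0.173, n = 8), and at 3 weeks 0.39 (SD 0.812, n = 2) and -0.050 (SD 0.147, n = 8). At 3 weeks the first replicates were 1 and 2, both with r below 0 against the other arrays (-0.224 and -0.179). SULT1C3 read -0.18 and 0.97 on them. The first replicates were thus lower at 1 week and higher at 3 weeks for both genes. The series text describes 2 rounds of hybridisation at these ages, and the labels do not say which replicates belong to which. The later ages have 4 arrays each and no such split.

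The left-out pair at 3 weeks would have been the most extreme SULT value of that age. Its deposited ratio was 2.38 on both columns, which turns to 1.25 or to -1.25 by the label used. The 3 week difference of SULT was -0.050 with both columns as labelled, -0.20 with replicate 3 alone and 0.084 with replicate 4 alone. For SULT1C3, at a ratio of 1.79 on both, these differences were 0.033, -0.023 and 0.095. All of these lay close to 0 beside the later SULT values.

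Arrays with a more negative SULT value tended to have a more negative SULT1C3 value, with exceptions at 9 and 11 weeks. Across the 35 arrays with both probes, less the dye effects, Pearson's r was 0.46 and Spearman's rho 0.35. Without the 2 arrays farthest from the SULT median, replicate 4 at 9 and at 11 weeks, r was 0.70 and rho 0.55 (33 arrays). SULT1C3 was positive on both, at 0.50 and 0.27, so that omission takes out arrays that ran against the link. With 1 array left out in turn r ran from 0.35 (without replicate 3 at 7 weeks) to 0.57 (without replicate 4 at 9 weeks). Split by age, r was 0.39 and rho 0.05 in the young group (20 arrays at 1 and 3 weeks). In the older group r was 0.38 and rho 0.28 (15 arrays at 5 to 11 weeks). The groups are not apart in SULT, since its values at 5, 9 and 11 weeks overlapped those at 1 week. Ranks were thus hardly related among the young arrays. The probes share each array's RNA, dyes and normalization, and no p is given, since the genes were picked together.

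**Figure D3:**
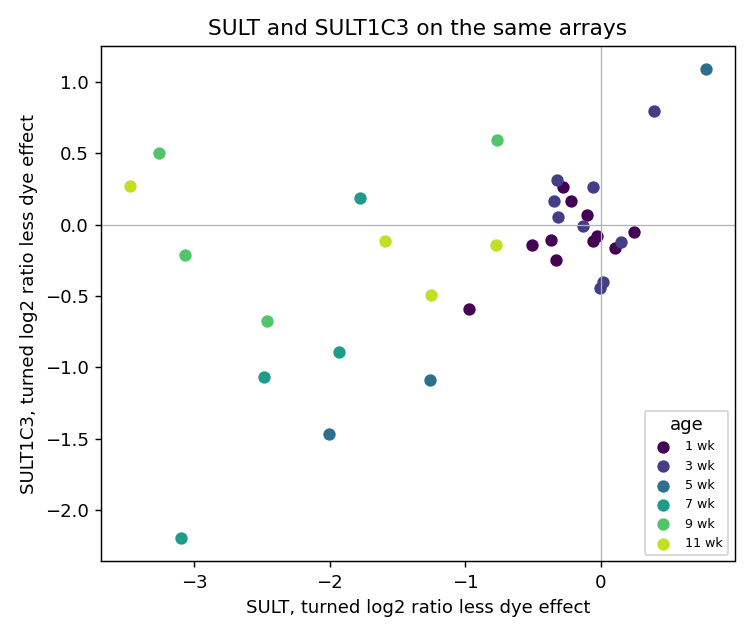
Turned log2 ratio less the dye effect for SULT (horizontal axis) and SULT1C3 (vertical axis) on the 35 arrays with both values, coloured by age. Arrays at 1 and 3 weeks cluster near 0, those at 7 weeks run to the lower left, and those at 9 and 11 weeks spread along the SULT axis, with SULT1C3 on both sides of 0 (from -0.68 to 0.59 at 9 weeks).

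The remaining cytosolic sulfotransferases on the array had values closer to 0 than SULT at 7, 9 and 11 weeks. SULT6B1L, SULT1B1, SULT1E1 and SULT4A1 had 7 probes, of which 5 could be tested, for 3 genes. SULT6B1L, whose role is not stated here, is the gene next to SULT in the RefSeq gene order on chromosome 3 (assembly GRCg7b, used for order alone), with DACT2 on the other side. SULT1C3 lies on chromosome 1 between SLC5A7 and GCC2, which had no probe here.

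SULT6B1L had a fitted difference below 0 at every age, close to 0 at 3 weeks (-0.07). At 5 weeks its arrays read -0.49, -0.32, -1.18 and 1.05, with a fitted difference of -0.23. That value was 0.10 without replicate 3, and -0.69 without replicate 4, where it passed (limma adjusted p = 0.0075). At 7 weeks its arrays read -0.06, -0.87, -0.74 and -0.75, at 9 weeks -0.35, 0.01, -0.41 and -0.50, and at 11 weeks -0.46, -0.40, -0.12 and -0.23. Of the 12 arrays at 7, 9 and 11 weeks 11 were negative. With all arrays no single age passed the test, with the largest difference at 7 weeks (-0.61, SE 0.198, limma adjusted p = 0.0994). The 7 week value passed without replicate 1 (-0.78, adjusted p = 0.0312) and not without replicate 3 (adjusted p = 0.336). A dye effect per age and replicate range also made it pass (adjusted p = 0.00921). It passed as well without replicates 1 and 2 at 3 weeks and replicate 4 at 5 weeks (adjusted p = 0.00462), with the 7 week value unchanged at -0.61. Those arrays were named from an earlier look at these data and had r below 0 with the line effect of the others. The passes without them, that at 5 weeks without replicate 4 included, thus lend SULT6B1L no support. The mean over the 6 ages did pass, at -0.28 (SE 0.0716, 1.21-fold, 38 arrays, limma adjusted p = 0.015), where 4.31% of all probes passed. That test counted arrays of birds hybridised again at 1 and 3 weeks as separate birds. Cross-hybridisation between transcripts of related genes was not tested. With replicates 1 to 4 alone at the young ages the mean was -0.29 and did not pass (adjusted p = 0.667).

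SULT1B1, which conjugates phenols and thyroid hormones in mammals, had 3 probes that gave 0.20, 0.02 and 0.00 at 7 weeks (SE 0.193, 0.0817 and 0.101). SULT1E1, the estrogen sulfotransferase of mammals, gave -0.04 at 7 weeks (SE 0.125) and 0.10 at 9 weeks. None of these passed at any age (limma adjusted p = 0.849 to 0.999 at 7 weeks). The second SULT1E1 probe and that of SULT4A1, a brain form in mammals, had values on 16 and 18 of 38 arrays and were not tested.

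**Figure D4:**
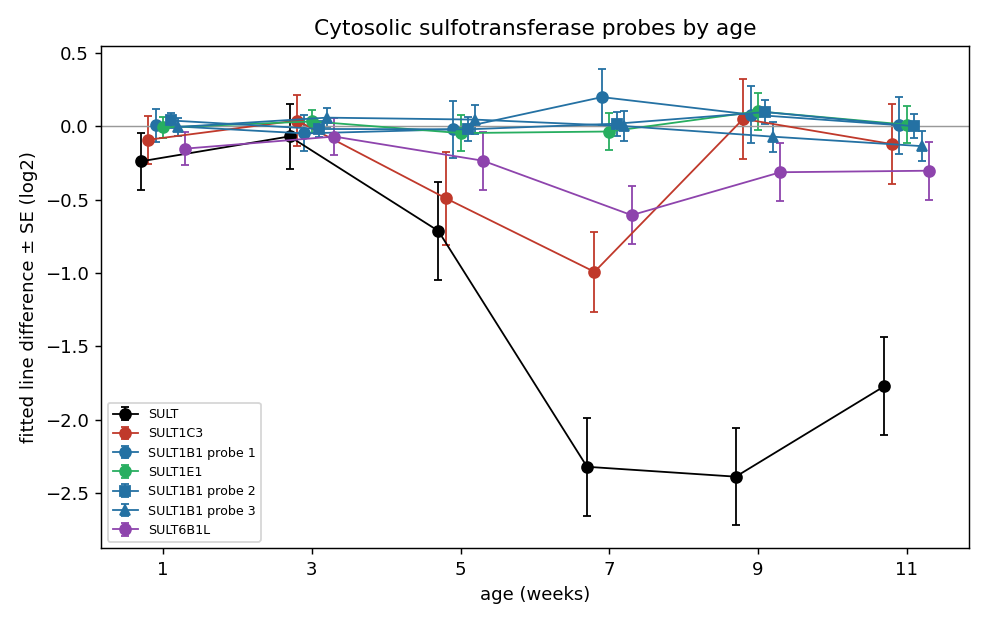
Fitted line difference (log2, with its SE) of each tested cytosolic sulfotransferase probe against age in weeks. SULT reaches -2.39 at 9 weeks and SULT1C3 -0.99 at 7 weeks, SULT6B1L lies between -0.61 and -0.07, and the SULT1B1 and SULT1E1 probes stay between -0.14 and 0.20.

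Genes that supply, share or oppose the sulfotransferase reaction were followed in lists that left SULT and SULT1C3 out. In all, 48 genes with 59 probes were tested. None passed at 1, 3 or 11 weeks, where 0.0155%, 0% and 0.389% of all probes passed. At these ages 5, 0 and 5 of the 59 probes had an unadjusted p under 0.05 (limma). Of all 6432 probes 86, 27 and 268 did. For 5, 7 and 9 weeks the unadjusted counts were 10, 17 and 9 of the 59, beside 569, 750 and 732 of all 6432. At 5 weeks 2 genes passed and both were negative, at 7 weeks 1 was positive and 3 negative, and at 9 weeks 1 was negative. In probes these are 5.08%, 8.47% and 1.69% of the listed, beside 0.777%, 2.91% and 0.84% of all probes. The median of the listed genes was 0.015 at 7 weeks and 0.019 at 9 weeks, and that of all probes 0.032 and 0.045. By list the medians at 7 weeks were on the negative side for the other cytosolic sulfotransferases (-0.036), other conjugating enzymes (-0.12) and hormone and steroid handling (-0.24), and above 0 for the other 4 tested lists. On average over the ages, 1 gene passed on the positive side and 10 on the negative side, which is 20.3% of the 59 probes beside 4.31% of all probes. Among all probes that passed there, 84 were positive and 193 negative. Of the 10 negative genes 6 were in hormone and steroid handling, 2 in other conjugating enzymes, and 1 each, SULT6B1L and AHCY, in the cytosolic sulfotransferase and sulfur amino acid lists. With replicates 1 to 4 alone at the young ages 1 gene passed, and with the arrays scaled to the same spread 7 did. The lists were chosen with earlier results of these data known, so a share above that of all probes is not read as enrichment.

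The lists of sulfate and sulfur handling had medians close to 0. Of 5 Golgi sulfotransferases, which sulfate proteins and glycans, 0 passed at any age, where 0% to 2.91% of all probes passed. With shares that low, 0 of 5 is not read as a result about these genes. Their median at 7 weeks was 0.11, with 0 of 5 negative, and CHST2, which acts on N-acetylglucosamine of glycans, had -0.25 at 9 weeks (adjusted p = 0.423), and CHST9 had 0.13 at 7 weeks (adjusted p = 0.758). The 5 tested genes of donor supply, sulfate transport and sulfur oxidation had medians of 0.02 at 7 weeks and 0.10 at 9 weeks. Among them TST and MPST, a pair of sulfurtransferases, had -0.28 on 1 TST probe and 0.19 for MPST at 9 weeks (adjusted p = 0.296 and 0.575). The other TST probe had -0.05. None of PAPSS1, PAPSS2 and BPNT1, which make the donor and clear its by-product, was among the tested genes. Both tested sulfatases, which take sulfate off again, were positive without passing, with 0.14 for SGSH at 7 weeks and 0.22 for ARSH at 9 weeks (adjusted p = 0.659 and 0.61).

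Of 9 genes of sulfur amino acid metabolism, 0 passed at any age, where 0% to 2.91% of all probes passed. With shares that low, 0 of 9 is not read as a result about this list. AHCY, which splits S-adenosylhomocysteine, had -0.46 and -0.60 on its probes at 7 weeks (adjusted p = 0.116 and 0.307). MAT2B, the regulatory subunit of a methionine adenosyltransferase, had 0.40 on 1 probe at 9 weeks (adjusted p = 0.37), beside 0.05 and -0.11 on its other probes. The widest values of the list were those of BHMT2, named after a betaine methyltransferase, with 1.30 at 5 weeks and -0.70 at 9 weeks (adjusted p = 0.331 and 0.499). The list medians were 0.03 and 0.00 at 7 and 9 weeks. No regulator of conjugation, of 22 listed and 10 on the array, could be tested.

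Other conjugating enzymes included 1 gene that passed at a single age, at 7 weeks, where 2.91% of all probes passed. GSTA3, a glutathione S-transferase of the alpha class, was at -1.36 at 7 weeks (SE 0.259, 2.56-fold, limma adjusted p = 0.0011), the same side as SULT. The list of 10 genes had a median of -0.12 at 7 weeks, with 6 of 10 negative. With the arrays scaled to the same spread GSTA3 had -0.80 and no longer passed (adjusted p = 0.219), nor did it with replicates 1 to 4 alone at the young ages (-1.36, adjusted p = 0.0526).

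The list of hormone and steroid handling held the rest of the genes that passed at a single age. Of all probes 0.777%, 2.91% and 0.84% passed at 5, 7 and 9 weeks. THRSP, which responds to thyroid hormone and is tied to lipid synthesis in mammals, was at -2.23 at 7 weeks (SE 0.405, 4.69-fold, adjusted p = 0.000525). TTR was negative on both probes at 5 weeks (-1.25 and -0.63, adjusted p = 0.0112 and 0.0436) and at 7 weeks (adjusted p = 8.94e-05 and 2.47e-05), yet near 0 at 9 weeks (0.02 and -0.10). AKR1D1, the steroid 5β-reductase of bile acid synthesis, was at -0.79 at 5 weeks and -0.86 at 9 weeks (SE 0.167, adjusted p = 0.0114 and 0.00342). HSD11B1B, named after an enzyme of glucocorticoid conversion, was positive at 1.42 at 7 weeks (SE 0.301, 2.68-fold, adjusted p = 0.00332). None of these 4 genes passed at 11 weeks, and AKR1D1 was the 1 that passed at 9 weeks. The AKR1D1 call at 9 weeks was lost without replicate 2 (-0.64, adjusted p = 0.0813), and that at 5 weeks without replicate 2 (-0.48, adjusted p = 0.503). The 5 week calls of TTR were also lost without replicate 1 or 2, at -1.18 and -0.97 for the first probe and -0.63 and -0.28 for the second, and for the first probe also without replicate 3, at -0.95. At 7 weeks THRSP, HSD11B1B and the first TTR probe did not pass with the arrays scaled to the same spread (-1.28, 0.85 and -0.94, adjusted p = 0.428, 0.769 and 0.0617). With array weights no listed gene passed at 7 weeks, and in fits per age none passed at 5 or 9 weeks.

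Markers of cell types moved beside SULT at 7 weeks and, for liver cells, in both directions. Of 9 hepatocyte genes, FGA, FGB and TF, which code for plasma proteins, passed on the positive side, and TTR and LBFABP, a liver fatty acid binding protein, on the negative side, with a median of -0.31. Another FGA probe had 0.33 and did not pass (limma adjusted p = 0.21). The erythroid gene HBBA, a beta globin, was at 0.86 (SE 0.122, limma adjusted p = 1.63e-05), 1 of 4 erythroid genes to pass. None of 7 leukocyte, 12 matrix and vessel, 2 bile duct, 2 intestinal, 2 pancreatic, 1 adipose or 4 muscle genes passed, nor did HINTW on the W chromosome. Medians of these lists ran from -0.06 to 0.12. At 9 weeks, where SULT was as far from 0, none of the marker genes passed, and the hepatocyte median was -0.10. At 11 weeks TF passed on the positive side (0.47, adjusted p = 0.0216), with a hepatocyte median of 0.07, and at 5 weeks TTR passed on the negative side. Of all probes 0.777%, 2.91%, 0.84% and 0.389% passed at 5, 7, 9 and 11 weeks. The part of cell makeup in the SULT values at 7 weeks was not tested.

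The genes whose array values ran most like those of SULT were CZH18ORF25 (r = 0.79, 37 arrays), CEBPB (0.78, 37 arrays), WASF2 (0.77, 35 arrays), TM2D3 (0.76, 34 arrays), MBD2 (0.75, 36 arrays), AKAP8 (0.74, 37 arrays), SSTR2 (0.73, 37 arrays) and NME4 (0.73, 37 arrays), of 3179 genes compared. CEBPB is a transcription factor of the liver, WASF2 an actin regulator, SSTR2 a somatostatin receptor and MBD2 a protein that binds methylated DNA. Their line differences were smaller than those of SULT. At 7 weeks CZH18ORF25 had -1.49, TM2D3 -1.58, CEBPB -1.13 and MBD2 -0.15. WASF2 was the most negative of the 8 at 9 weeks, at -1.55.

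For CEBPB, MBD2 and WASF2 the likeness belonged to single probes. CZH18ORF25, TM2D3, AKAP8, SSTR2 and NME4 had no other tested probe to compare. The other CEBPB probe had r = -0.33 with SULT, the other MBD2 probe -0.21 and the other WASF2 probes -0.06 and 0.28. At the opposite end stood COQ10B (r = -0.79), TBC1D22B (-0.76, and -0.55 on its other probe), HK1 (-0.70) and TSNAX (-0.69), on 37 arrays each. All 4 were positive at 7, 9 and 11 weeks, by 0.04 to 0.60, with HK1 at 11 weeks (0.04, SE 0.0745) within its error. The like and unlike genes were picked by r with SULT on these same arrays. Their signs at the ages where SULT was far from 0 thus follow from that choice and are no separate result. SULT6B1L stood 53rd of 3179 in likeness to SULT (r = 0.57) and SULT1C3 128th.

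**Figure D5:**
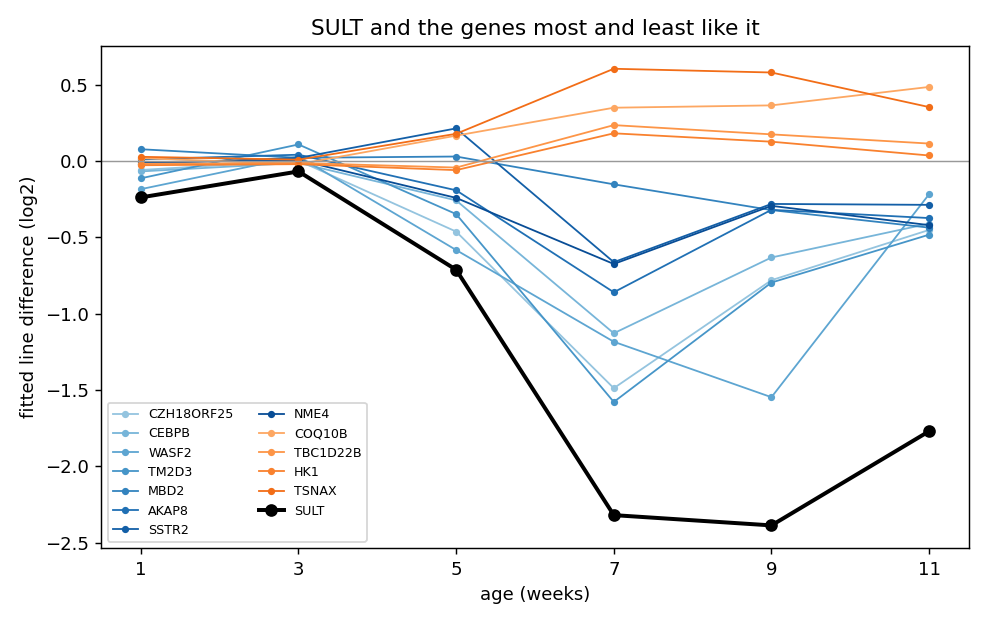
Fitted line difference (log2) against age in weeks for SULT (black), the 8 genes most like it across arrays (blue) and the 4 least like it (orange). SULT stays below -1.7 at 7, 9 and 11 weeks, while 6 of the 8 like genes are most negative at 7 weeks, WASF2 at 9 weeks and MBD2 at 11 weeks. The genes were picked by r with SULT on these arrays, so the likeness of the courses follows from that choice.

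Likeness to SULT1C3 was led by GAPDH (r = 0.84, 33 arrays, and 0.64 and 0.52 on its other probes), ENSA (0.84, 32 arrays), ATP5F1AZ (0.84, 36 arrays), LMNA (0.83, 32 arrays) and SLC35E1 (0.83, 36 arrays). GAPDH is an enzyme of glycolysis, ATP5F1AZ is named after a subunit of the ATP synthase and LMNA codes for a lamin of the nucleus. None of these 5 genes was among the 8 most like SULT. At 7 weeks their differences ran from -0.64 for GAPDH to -0.22 for ENSA. SULT6B1L stood 46th in likeness to SULT1C3 (r = 0.73, 36 arrays) and SULT 290th of 3177. With the arrays scaled to the same spread r was 0.66 for GAPDH, 0.65 for ATP5F1AZ and 0.52 for SULT6B1L.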

How the data were processed

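Liver RNA of HG and LG chickens was compared on 2-colour spotted cDNA arrays. The authors deposited a linear dye ratio for each spot. Array medians of 0.966 to 1.015 show values already centred. The normalization, background correction, build and numerator dye are not given in the sources used here. Ratios were taken as not yet turned by line.

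The log2 ratio was turned by the labelled dye, and spots of 1 accession were averaged. Probes needed values on 75% of the arrays of every age. R 4.3.3 with limma 3.58.1 (lmFit, eBayes) fitted a line effect per age and 1 dye effect, with 1 spread per probe for all ages. Tests were two-sided, with Benjamini-Hochberg adjustment over 6432 probes per contrast and a threshold of 0.05. All 40 arrays were to be used. The near-identical pair was left out, and fits that keep it added, after seeing the data. The code recovered known changes in simulated data. Symbols came from the platform annotation. Of 10601 annotated spots, 10455 matched RefSeq.

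The members, lists and tests were chosen with earlier results of these data known. Named genes were SULT and SULT1C3, the measured cytosolic sulfotransferases, list genes past the threshold at an age or else the 2 with the smallest p at 7 or 9 weeks, the genes of highest and lowest likeness, and ORM1 and TTR. BHMT2, marker genes and results for contrasts over ages were named after their values were seen. Alternatives changed arrays, filter, scale, centring, dye terms, weights, blocks and turning.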

Additional observations from a re-analysis of the deposited data

Results flagged for a closer look

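Sulfotransferase probes at 3 weeks and later made 35 groups of arrays. SULT1C3 at 5 weeks had 3 values and was too small to look at. Among the others, each of 4 to 10 arrays, 2 held an array far from the rest. Chance alone flags about 1 in 20 such groups. One SULT1B1 probe at 5 weeks had -0.414 on replicate 4, with 0.0883 as the nearest other value and a gap of 0.898 of the range. That array had r = -0.275 across probes with the line effect of the other arrays. SULT6B1L at 7 weeks had -0.0936 on replicate 1 once the dye effect was taken off, with -0.716 as the nearest value and a gap of 0.831 of the range.

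The line difference at 5 to 11 weeks differed from that at 1 and 3 weeks for 4 listed probes by the limma contrast of the difference itself, where 1.15% of all probes did. This contrast, too, counted arrays of birds hybridised again at 1 and 3 weeks as separate birds. AKR1D1 had -0.645 (adjusted p = 0.00119) and 1 TTR probe -0.46 (adjusted p = 0.0152). ACSM5, a mitochondrial acyl-CoA synthetase, had -0.509 (adjusted p = 0.0486), and HSD17B4, an enzyme of peroxisomal oxidation, had -0.321 (adjusted p = 0.0445). With 1 array left out in turn the adjusted p reached 0.00286 for AKR1D1, 0.0335 for TTR, 0.111 for ACSM5 and 0.104 for HSD17B4. For ACSM5 and HSD17B4 the call was lost in most of these fits. Both calls were also lost with no dye effect (adjusted p = 0.0655 and 0.0562) and with the arrays scaled to the same spread (0.181 and 0.145). Array weights (0.0998 and 0.0574) and no filter (0.0653 and 0.0593) lost them too. With replicates 1 to 4 alone at 1 and 3 weeks none of the 4 calls was kept (adjusted p = 1). The TTR call was also lost with no dye effect (adjusted p = 0.133), with the arrays scaled to the same spread (0.334) and with replicates 5 to 12 alone (0.0721).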

How the results depend on the processing

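SULT stayed negative at 7 and 11 weeks under every alternative run and at 9 weeks under all but 1. Reading the ratios as already turned gave SULT -0.324 at 7 weeks and 0.167 at 9 weeks, SULT1C3 0.219, 0.162, 0.667 and 0.371 at 1, 7, 9 and 11 weeks, and 11, 6, 24, 11, 4 and 6 listed genes past the threshold at the 6 ages, where the values above were 0, 0, 2, 4, 1 and 0, and 22 on average over the ages in place of 11. It also changed the sign of ACSM5 (0.0247), AKR1D1 (0.154), HSD17B4 (0.198) and TTR (0.0161) for late minus early, of AKR1D1 (0.672) and TTR (0.473) at 5 weeks, and of GSTA3 (0.119), THRSP (0.0679) and TTR (0.447 and 0.525) at 7 weeks. Arrays scaled to the same spread gave SULT -1.37 at 7 weeks, 0, 1 and 2 genes at 5, 7 and 11 weeks, 7 on average over the ages, and a SULT1C3 dye effect of 0.179 (adjusted p = 0.0357). Array weights gave 9, 0, 20 and 4 genes at 5, 7, 9 and 11 weeks, and a dye effect per age and replicate range gave 5, 10, 5 and 2. Fits per age, and replicates 1 to 4 alone at the young ages, gave 0 genes at 5 and 9 weeks, and the latter 1 on average over the ages. Without replicates 1 and 2 at 3 weeks and replicate 4 at 5 weeks, 3 arrays named from an earlier look at these data, there were 10, 7 and 2 genes at 5, 7 and 9 weeks and a SULT1C3 dye effect of 0.196 (adjusted p = 0.0348). No filter gave 2 at 9 weeks. The share of all probes that passed was not counted under the alternatives or with arrays left out. The counts of listed genes under them are thus not read as a result about these genes. The replicate numbers of different ages are different birds. Same-numbered arrays had a median r of 0.179 (-0.355 to 0.569, 58 pairs), against -0.00222 for other pairs, and 10 of 38 arrays correlated best with their own number. The replicate block gave 1 gene at 5 weeks, 2 on average over the ages, SULT -2.19 at 7 weeks and -2.26 at 9 weeks, and adjusted p = 0.641 for the SULT6B1L mean, 0.0673 for GSTA3 at 7 weeks (-1.44), and 0.098 and 0.249 for TTR at 5 weeks. The late minus early calls had adjusted p = 0.257 to 0.986 with it.

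With 1 array left out in turn the genes past the threshold numbered 1 to 10 at 5 weeks (10 without replicate 4), 4 to 11 at 7 weeks (11 without replicate 1), 0 to 1 at 9 weeks (0 without replicate 2) 0 to 1 at 11 weeks and 9 to 16 on average over the ages. SULT ran from -0.28 to -0.17 at 1 week, -0.13 to -0.034 at 3 weeks, -1.23 to -0.27 at 5 weeks, -2.51 to -2.05 at 7 weeks, -2.95 to -2.09 at 9 weeks and -2.12 to -1.18 at 11 weeks, where replicate 4 decided the lower size. SULT1C3 ran from -0.13 to -0.042, -0.048 to 0.094, -1.28 to 0.058, -1.40 to -0.58, -0.14 to 0.30 and -0.26 to 0.0079 at the 6 ages. The dye effects ran from -0.27 to -0.146 for SULT and 0.127 to 0.232 for SULT1C3. The causes of these changes were not tested. Depth and brightness are unknown from a ratio, and 4 arrays per later age limit the precision.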
